A study of Homo sapiens with 9 samples.

Results

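The genes described here are the transcription factor SRF, its coactivators MRTFA, MRTFB and MYOCD, the small GTPases RHOA and RHOB with their kinases ROCK1 and ROCK2, the focal adhesion protein gene VCL and the LIM domain gene FHL2. They were taken by gene symbol, and all 10 had a transcript cluster, the probe set that summarises 1 gene, among the 21448 clusters tested. The cells were ACC-MESO-1, a human cell line established from pleural mesothelioma, which is a cancer of the tissue that covers the lungs, and 9 Clariom S arrays were hybridised with their RNA. They had been infected with shRNA, a short hairpin that lowers the mRNA it matches. The groups were ShLSD1 #1 (replicates 4 to 6), ShLSD1 #2 (replicates 7 to 9) and Control shRNA (replicates 1 to 3), with 3 arrays each. Both ShLSD1 hairpins target LSD1, a histone demethylase of repressor complexes, and all groups share the cell line and an shRNA infection. The labels give neither the vector, nor the time after infection, nor whether replicates were separate cultures. Each p-value therefore measures the spread between arrays, which may be technical, and the LSD1 transcript itself is not analysed here.

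SRF binds a DNA element called the CArG box in the promoters of genes for actin, actin-binding proteins and smooth muscle contraction. The myocardin family, MRTFA, MRTFB and MYOCD, switches SRF to these contractile genes. MRTFA and MRTFB are held in the cytoplasm by monomeric actin, and they enter the nucleus when RhoA and its ROCK kinases drive actin into filaments, so much of their control lies outside their transcript level. The comparison asks how the transcripts of these factors and of their regulators differed between cells with an LSD1 hairpin and cells with the Control hairpin. In RNA from whole cultures, more cells that express a gene and more RNA per cell cannot be told apart.

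FHL2, which encodes a LIM domain protein that binds SRF and is known in mouse as a target of SRF and MRTF, rose 1.49-fold with ShLSD1 #1 and 1.505-fold with ShLSD1 #2. RHOB and MRTFB rose 1.53-fold and 1.44-fold with ShLSD1 #1 and did not pass the test with ShLSD1 #2. With a block for a spike-in class of the arrays, described below, the ShLSD1 #1 calls of FHL2, RHOB and MRTFB ended (adjusted p = 0.22, 0.206 and 0.23). All ShLSD1 #1 arrays are of 1 class and all Control arrays of the other, so that fit has less precision for ShLSD1 #1. Leaving out 1 array ended the ShLSD1 #1 call of MRTFB in 6 of 9 fits and that of RHOB in 3. SRF, MRTFA, MYOCD, RHOA, ROCK1, ROCK2 and VCL did not pass with either hairpin. The 9 genes above the negative controls had log2 changes between -0.25 and 0.61 with ShLSD1 #1, and between -0.39 and 0.59 with ShLSD1 #2. TAGLN, of 29 SRF targets measured the one with the largest fitted change, was at least 18.2-fold and 13.6-fold higher. With ShLSD1 #1 the median log2 change was 0.41 over these 29 targets and 0.36 over the 10 genes. With ShLSD1 #2 the medians were 0.22 and 0.10. Tests are limma's, in 1 fit of the 9 arrays, with p-values adjusted by Benjamini-Hochberg over all clusters and a threshold of 0.05.

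With ShLSD1 #1, 3 of the 10 genes were called higher and 0 lower (5 had an unadjusted p under 0.05). Of all clusters 7.85% were called higher, 7.94% lower and 15.8% in either direction, and 29.1% had an unadjusted p under 0.05. Among the 8566 clusters above the negative controls on all arrays, to which every gene here but MYOCD belongs, 13.7% were called higher and 28.6% in either direction. With ShLSD1 #2, 1 of 10 was called higher and 0 lower (3 had an unadjusted p under 0.05). Of all clusters 6.56% were called higher, 6.63% lower and 13.2% in either direction, and 26% had an unadjusted p under 0.05, so the count of the 10 genes is near the background. Of the clusters above the negative controls 11.8% were called higher and 24% in either direction. The median log2 change of the 10 genes was 0.36 with ShLSD1 #1 and 0.10 with ShLSD1 #2, beside 0.03 and 0.02 over all clusters. Both comparisons use the same 3 Control arrays. With the mean of both hairpins against Control, 2 of 10 were called, FHL2 and RHOB (adjusted p = 0.0016 and 0.0413), both higher, where 9.25% of clusters were called higher, 8.98% lower and 18.2% in either direction, and 30.5% had an unadjusted p under 0.05. Of the clusters above the negative controls 16% were called higher and 32.2% in either direction. The RHOB call with that mean ended without replicate 1, 2, 3, 4, 5, 6 or 9 (adjusted p between 0.0506 and 0.148), and the spike-in block described below ended both (0.143 for RHOB and 0.055 for FHL2). MRTFB was narrowly short with that mean, at 0.41 (adjusted p = 0.0506 by limma). It passed under a second quantile normalization, cyclic loess and array weights (0.0395, 0.0464 and 0.0476). It also passed with a trended robust prior (0.0126) and without the third of clusters of lowest mean (0.027). Of the 9 fits without 1 array it passed in 1, without replicate 4 (0.0305), and it did not pass with the spike-in block (0.154).

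**Figure D1:**
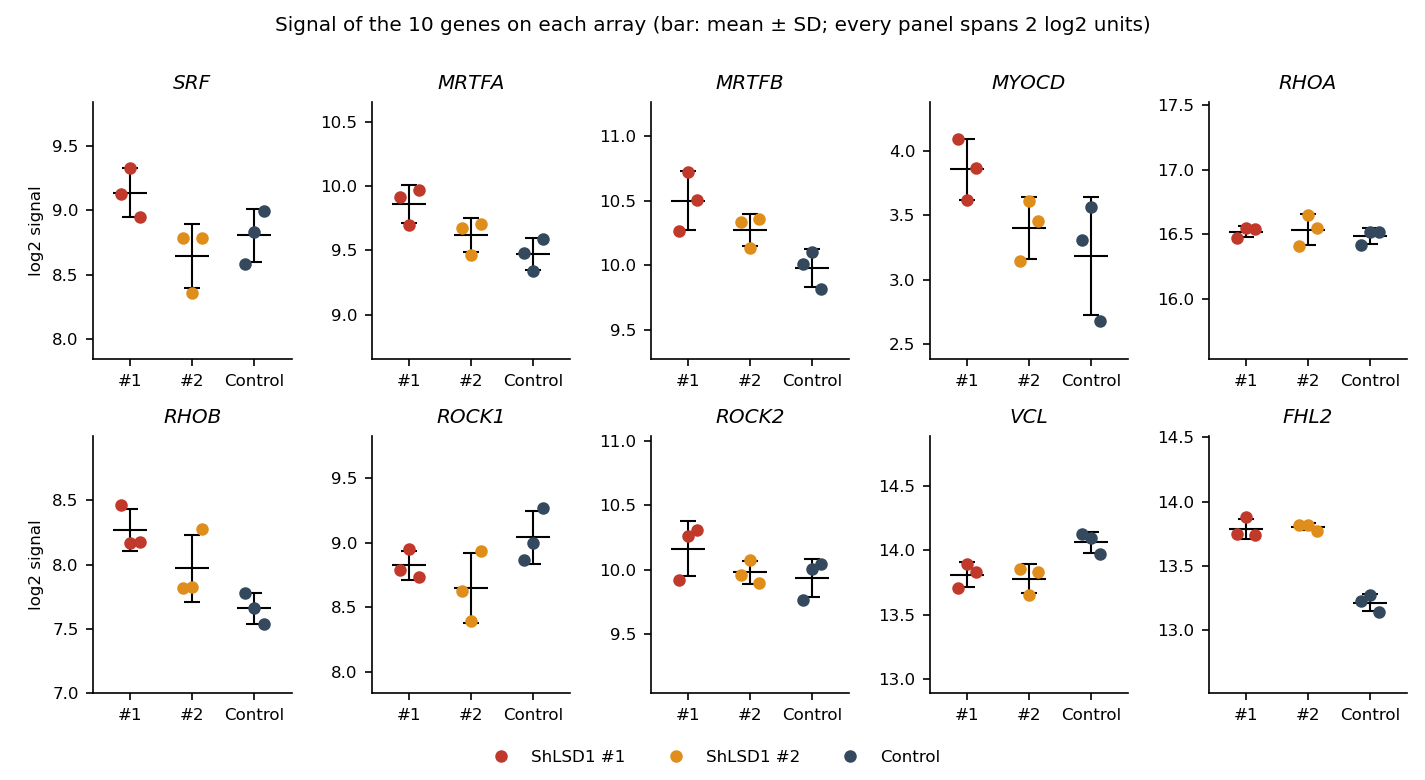
Log2 signal (y axis) of each of the 10 genes on the 9 arrays, with ShLSD1 #1, ShLSD1 #2 and Control from left to right; points are arrays, bars the mean ± SD of 3 arrays, and every panel spans 2 log2 units. The 6 FHL2 hairpin arrays sit at 13.7 to 13.9, apart from its 3 Control arrays at 13.1 to 13.3.

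Median log2 signals of the arrays were 6.39 to 6.43. A cluster counts as above the negative controls where it exceeds their 95th percentile on that array, as 42.0% to 46.2% of clusters did. The signal of 4 hybridization spike-in probe sets, which do not come from the cells, was 10.8 to 10.9 on ShLSD1 #1 replicates 4 to 6 and ShLSD1 #2 replicate 8, and 11.2 to 11.4 on the other arrays, Control included. This class moves with the hairpin, so results are also given with it as a block. Only ShLSD1 #2 holds arrays of both classes, so its replicate 8 against its replicates 7 and 9 alone sets the block. The ShLSD1 #1 change then carries that difference and loses precision, as for FHL2, whose SE goes from 0.10 to 0.19. Whether a ShLSD1 #1 call ended through lower precision or through the class was not tested. For ShLSD1 #2 minus Control, the block gives the same estimate as leaving out replicate 8, so these are not separate checks. Of 12 mesothelial markers, 8 exceeded the negative controls on at least 1 array and MSLN, KRT7, KRT8 and KRT18 on all 9, while CALB2 and KRT5 did so on none. Among these markers MSLN fell by 0.85 with ShLSD1 #1 and by 0.95 with ShLSD1 #2, while WT1 rose by 0.84 and 0.75 and UPK3B by 1.33 and 1.34, both from Control means below the negative controls' average of 7.25. The leukocyte genes PTPRC and CD3E and all 3 endothelial markers were below the negative controls throughout, whereas CD68, a lysosomal protein of macrophages, exceeded them on all 9 arrays and fell by 1.11 with ShLSD1 #1 and by 1.347 with ShLSD1 #2. Of 7 muscle markers, SYNPO2 alone exceeded them, on 1 array, and its fitted changes of 1.53 and 1.72 passed. The log2 of the summed signals of those 7, MYOCD among them, was 8.02 to 8.26 in ShLSD1 #1 and 7.88 to 8.36 in ShLSD1 #2 arrays. In Control arrays it was 7.39 to 7.64. The sum is made mostly of signals below the negative controls, and the part of these markers in the results was not tested.

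The CArG box was searched in RefSeq promoter windows (GRCh38.p14) from 250 bases before to 50 after each annotated start, as CC, then 6 bases that are each A or T, then GG, which reads the same on both strands. Windows were found for 9 of the 10 genes, all but MYOCD. A CArG box was present in 5 of their 19 windows and in 3 of the 9 genes, SRF, ROCK2 and FHL2. Of all 35116 windows 1.29% hold one, and of all 27305 genes with a window 1.6%. SRF has a pair in its upstream window, and FHL2 has 2 different ones at separate starts. These windows are shown because they hold the element through which the factor of this pathway binds, with the CArG boxes in capitals, 5′ to 3′ on the gene's strand.
SRF, chr6:43171019-43171318, plus strand: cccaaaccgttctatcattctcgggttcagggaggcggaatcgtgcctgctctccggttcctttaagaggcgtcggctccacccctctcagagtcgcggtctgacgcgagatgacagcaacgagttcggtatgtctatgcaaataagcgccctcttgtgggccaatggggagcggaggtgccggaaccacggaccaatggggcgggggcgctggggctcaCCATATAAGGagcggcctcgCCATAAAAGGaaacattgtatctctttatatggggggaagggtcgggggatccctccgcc
FHL2 inner start, chr2:105399002-105399301, minus strand: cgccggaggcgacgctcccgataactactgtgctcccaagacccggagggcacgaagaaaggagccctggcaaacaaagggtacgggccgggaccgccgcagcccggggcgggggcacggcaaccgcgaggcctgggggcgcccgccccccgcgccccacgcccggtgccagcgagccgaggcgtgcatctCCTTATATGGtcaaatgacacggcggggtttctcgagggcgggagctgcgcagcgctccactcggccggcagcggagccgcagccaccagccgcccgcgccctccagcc
FHL2 outer start, chr2:105438464-105438763, minus strand: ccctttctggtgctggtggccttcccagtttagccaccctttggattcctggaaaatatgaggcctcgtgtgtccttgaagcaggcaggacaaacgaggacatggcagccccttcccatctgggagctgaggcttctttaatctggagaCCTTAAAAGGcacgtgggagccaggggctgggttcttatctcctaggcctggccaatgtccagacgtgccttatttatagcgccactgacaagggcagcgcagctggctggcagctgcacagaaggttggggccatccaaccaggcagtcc
ROCK2 outer start, chr2:11345388-11345687, minus strand: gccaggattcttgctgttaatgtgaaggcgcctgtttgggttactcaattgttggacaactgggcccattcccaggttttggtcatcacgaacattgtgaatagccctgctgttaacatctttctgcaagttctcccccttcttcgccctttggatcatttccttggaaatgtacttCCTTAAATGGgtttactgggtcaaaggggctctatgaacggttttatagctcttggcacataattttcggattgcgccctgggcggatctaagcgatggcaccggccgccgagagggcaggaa

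The SRF boxes CCATATAAGG and CCATAAAAGG begin 30 and 10 bases before the start. The FHL2 boxes CCTTATATGG and CCTTAAAAGG begin 59 bases before the inner and 101 before the outer start. A further, overlapping FHL2 window whose start lies close by holds the same CCTTAAAAGG site, 85 bases before its own start. The ROCK2 box CCTTAAATGG begins 73 bases before its outer start. None was found in the windows of MRTFA, MRTFB, RHOA, RHOB, ROCK1 and VCL, which says only that this exact pattern is not in these windows. Of the 3 genes with a box, FHL2 passed the test and SRF and ROCK2 did not, and the arrays do not show which start was used.

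**Figure D2:**
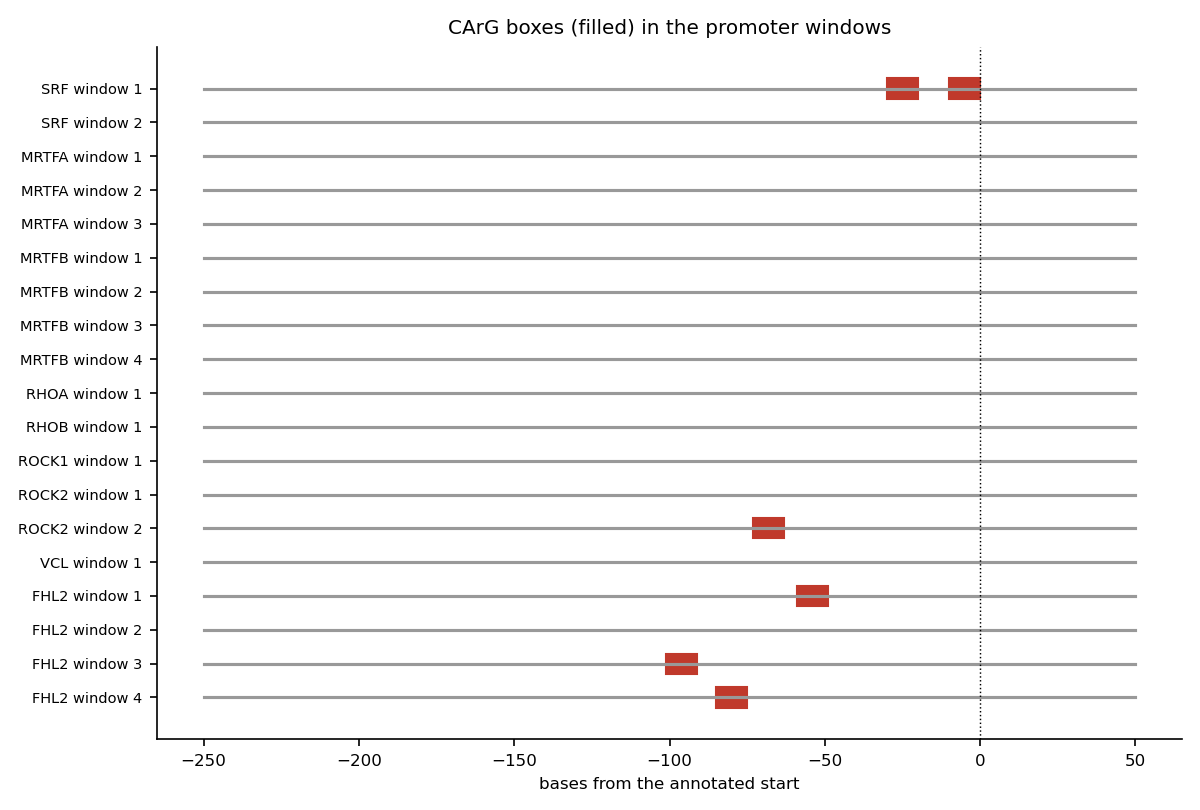
CArG boxes (filled) along the 19 RefSeq promoter windows of 9 genes, by distance in bases from the annotated start (x axis, 250 before to 50 after; dotted line, the start). Boxes lie in 1 window of SRF, 1 of ROCK2 and 3 of FHL2, where overlapping FHL2 windows hold the same box.

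SRF itself, the DNA-binding partner, had log2 signals of 9.13, 9.33 and 8.95 on the ShLSD1 #1 arrays, 8.79, 8.36 and 8.78 on the ShLSD1 #2 arrays, and 8.58, 8.83 and 8.996 on the Control arrays. Both hairpin groups overlapped the Control range, with 2 ShLSD1 #1 arrays above it and 1 ShLSD1 #2 array below it. Its difference from Control was 0.33 ± 0.17 with ShLSD1 #1 (SE, n = 3 arrays a group, adjusted p = 0.234 by limma; 95% interval -0.05 to 0.71). With ShLSD1 #2 it was -0.16 ± 0.17 (adjusted p = 0.618 by limma; -0.54 to 0.22). The order of the means was ShLSD1 #1, Control, ShLSD1 #2, and neither neighbouring pair passed the test. The SRF differences with the spike-in block were 0.76 with ShLSD1 #1 (adjusted p = 0.225) and -0.02 with ShLSD1 #2 (0.967). That ShLSD1 #2 value is the same estimate as without its replicate 8.

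MRTFA, one of the coactivators released from monomeric actin, had 9.91, 9.70 and 9.97 on the ShLSD1 #1 arrays, 9.68, 9.47 and 9.71 on the ShLSD1 #2 arrays, and 9.48, 9.34 and 9.59 on the Control arrays. All ShLSD1 #1 arrays lay above all Control arrays, and the ShLSD1 #2 arrays overlapped both groups. The difference from Control was 0.39 ± 0.13 with ShLSD1 #1 (adjusted p = 0.0689 by limma, short of the threshold; 95% interval 0.10 to 0.68) and 0.15 ± 0.13 with ShLSD1 #2 (adjusted p = 0.533; -0.14 to 0.44). The ShLSD1 #1 difference passed without the third of clusters of lowest mean (adjusted p = 0.0348) and with a trended robust prior (0.0386). It passed in 0 of 9 fits without 1 array (adjusted p between 0.0513 and 0.202), and not with the spike-in block (0.237).

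MRTFB, the second actin-regulated coactivator, had 10.27, 10.73 and 10.51 on the ShLSD1 #1 arrays, 10.33, 10.13 and 10.36 on the ShLSD1 #2 arrays, and 10.01, 10.10 and 9.81 on the Control arrays. Every hairpin array lay above every Control array. It rose by 0.53 ± 0.15 with ShLSD1 #1 (1.44-fold, 95% interval 1.15 to 1.81, adjusted p = 0.0385 by limma) and had a difference of 0.30 ± 0.15 with ShLSD1 #2 (1.23-fold, 0.98 to 1.55, adjusted p = 0.237). The means ran from ShLSD1 #1 through ShLSD1 #2 to Control, and only the outer pair passed the test. The ShLSD1 #1 call ended without Control replicate 1, 2 or 3 (adjusted p = 0.0841, 0.0591 and 0.123), without ShLSD1 #1 replicate 5 or 6 (0.104 and 0.0939), without ShLSD1 #2 replicate 7 (0.0568), in a fit of only the groups compared (0.0672) and with the spike-in block (0.23).

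MYOCD, the coactivator of cardiac and smooth muscle, was under the negative controls on every one of the 9 arrays. Its signals were 4.09, 3.62 and 3.87 with ShLSD1 #1, 3.14, 3.61 and 3.45 with ShLSD1 #2 and 3.31, 3.56 and 2.68 in Control, under a negative control percentile of 6.93 to 7.54. No fold is given for it. Its fitted difference with ShLSD1 #1 (adjusted p = 0.0819) passed the test without Control replicate 2 (0.0488), still between signals below the negative controls.

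RHOA, the GTPase that drives actin assembly through ROCK and formins, had signals of 16.47, 16.55 and 16.54 with ShLSD1 #1, 16.41, 16.65 and 16.55 with ShLSD1 #2, and 16.41, 16.52 and 16.52 in Control. The 3 groups overlapped. Differences from Control were 0.03 ± 0.11 with ShLSD1 #1 (adjusted p = 0.868 by limma; 95% interval -0.21 to 0.28) and 0.05 ± 0.11 with ShLSD1 #2 (adjusted p = 0.826; -0.19 to 0.29). Its signal exceeds 16, the log2 ceiling of a 16-bit scanner before normalization. Whether a rise is compressed there was not tested, so these intervals may not bound a rise of the transcript. Deposited values reach 18.755, and MYL9 rose from a Control mean of 15.91 to 16.85 with ShLSD1 #1 (adjusted p = 0.00029 by limma). Of the 140 clusters with a Control mean above 16, to which MYL9 does not belong, 14 were called with ShLSD1 #1 and 14 with ShLSD1 #2. Among those called, 1 and 0 were higher. Of all clusters 15.8% and 13.2% were called in either direction, and 7.85% and 6.56% higher. Of the clusters above the negative controls on all arrays, 28.6% and 24% were called in either direction, and 13.7% and 11.8% higher.

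RHOB, an endosomal relative of RhoA whose gene is induced by growth factors and stress, had 8.46, 8.17 and 8.18 with ShLSD1 #1, 7.82, 7.82 and 8.27 with ShLSD1 #2, and 7.78, 7.66 and 7.54 in Control. All 6 hairpin arrays lay above the 3 Control arrays, 2 of the ShLSD1 #2 arrays by a narrow margin. It rose by 0.61 ± 0.16 with ShLSD1 #1 (1.53-fold, 95% interval 1.197 to 1.94, adjusted p = 0.0266 by limma) and had a difference of 0.31 ± 0.16 with ShLSD1 #2 (1.24-fold, 0.97 to 1.58, adjusted p = 0.247). Its means ran in the order ShLSD1 #1, ShLSD1 #2, Control, and only the outer pair differed by the test. The ShLSD1 #1 call ended without Control replicate 2 or 3 (adjusted p = 0.0718 and 0.0883), without ShLSD1 #1 replicate 4 (0.0929) and with the spike-in block (0.206).

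ROCK1 and ROCK2 encode the kinases that act downstream of RhoA and RhoB on myosin light chain phosphatase and LIM kinases. ROCK1 had 8.79, 8.95 and 8.74 with ShLSD1 #1, 8.63, 8.39 and 8.94 with ShLSD1 #2, and 8.87, 8.996 and 9.27 in Control. Hairpin arrays were lower on average but overlapped the Control arrays, and a partial ROCK1 pseudogene may share probe signal. The difference was -0.22 ± 0.16 with ShLSD1 #1 (adjusted p = 0.425 by limma) and -0.39 ± 0.16 with ShLSD1 #2 (adjusted p = 0.165, unadjusted p = 0.0392), and with the spike-in block the ShLSD1 #1 difference changed sign to 0.17 (adjusted p = 0.837).
ROCK2 had 9.92, 10.26 and 10.31 with ShLSD1 #1, 9.96, 10.08 and 9.90 with ShLSD1 #2, and 9.77, 10.00 and 10.04 in Control, with all groups overlapping. Its differences were 0.23 ± 0.14 with ShLSD1 #1 (adjusted p = 0.323 by limma; 95% interval -0.08 to 0.54) and 0.04 ± 0.14 with ShLSD1 #2 (adjusted p = 0.896; -0.27 to 0.35).

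VCL encodes vinculin, which links integrin-bound talin to actin at focal adhesions and is a classical SRF target in mouse fibroblasts. Its signals were 13.71, 13.90 and 13.83 with ShLSD1 #1, 13.86, 13.66 and 13.83 with ShLSD1 #2, and 14.12, 14.10 and 13.97 in Control. All 6 hairpin arrays lay below the 3 Control arrays. The difference was -0.25 ± 0.11 with ShLSD1 #1 (0.84-fold, 95% interval 0.70 to 1.003, adjusted p = 0.178 by limma) and -0.28 ± 0.11 with ShLSD1 #2 (0.82-fold, 0.69 to 0.98, adjusted p = 0.151). With a trended robust prior both passed (adjusted p = 0.0243 and 0.0138), and with the spike-in block the differences were -0.06 and -0.22.

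FHL2 had 13.75, 13.88 and 13.74 on the ShLSD1 #1 arrays, 13.82, 13.82 and 13.77 on the ShLSD1 #2 arrays, and 13.22, 13.28 and 13.14 on the Control arrays. The 6 hairpin arrays formed 1 narrow band above the 3 Control arrays. The rise was 0.57 ± 0.10 with ShLSD1 #1 (1.49-fold, 95% interval 1.27 to 1.75, adjusted p = 0.00472 by limma) and 0.59 ± 0.10 with ShLSD1 #2 (1.505-fold, 1.28 to 1.76, adjusted p = 0.00465). Without any 1 array its changes stayed between 0.53 and 0.62, at adjusted p of at most 0.0228. With the spike-in block the ShLSD1 #1 change was 0.55 and no longer passed (adjusted p = 0.22), and the ShLSD1 #2 change was 0.58 (adjusted p = 0.0192).

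**Figure D3:**
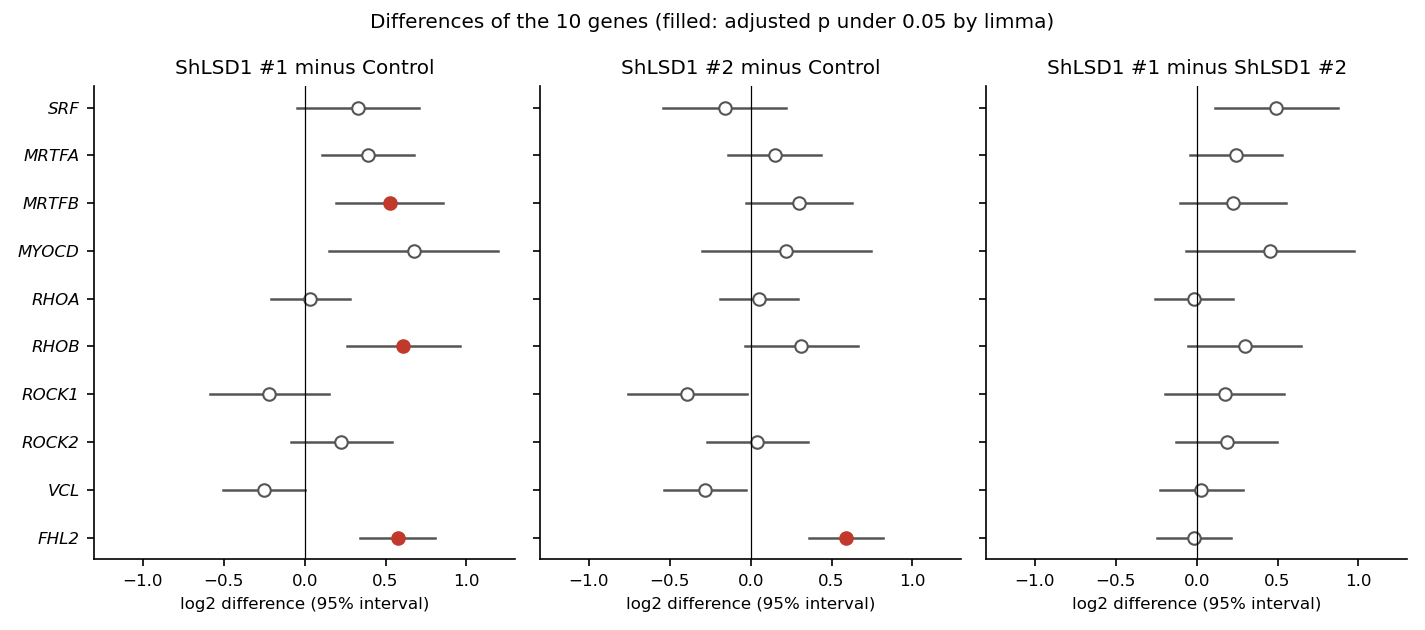
Log2 differences (x axis, with 95% intervals from limma) of the 10 genes for ShLSD1 #1 minus Control, ShLSD1 #2 minus Control and ShLSD1 #1 minus ShLSD1 #2; filled points have an adjusted p under 0.05. RHOB, MRTFB and FHL2 are filled in the first panel, FHL2 in the second and none in the third.

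The arrays of ShLSD1 #1 and Control did not overlap for 6 of the 10 genes, RHOB, MYOCD, FHL2, MRTFB and MRTFA on the high side and VCL on the low side, where 35% of all clusters showed no overlap in either direction. Between ShLSD1 #2 and Control 4 genes did not overlap, FHL2, RHOB and MRTFB above and VCL below, against 32.1% of clusters. By limma 0 of the 10 genes differed between the hairpins, as did 0% of all clusters, and a trended robust prior also called 0 of the 10. Their arrays did not overlap for SRF and MYOCD, 2 of the 10 genes, where 13.3% of clusters showed no overlap. SRF was the 1 gene with an unadjusted p under 0.05 there, as 7.87% of clusters had, with a difference of ShLSD1 #1 minus ShLSD1 #2 of 0.49 ± 0.17 (adjusted p = 0.582; 95% interval 0.11 to 0.87). For FHL2 the hairpins differed by -0.02 (-0.25 to 0.21), for RHOA by -0.02 (-0.26 to 0.23) and for VCL by 0.03 (-0.22 to 0.28). For MRTFA, MRTFB and RHOB, ShLSD1 #1 was above ShLSD1 #2 by 0.24 (-0.04 to 0.53), 0.22 (-0.10 to 0.55) and 0.30 (-0.05 to 0.65), intervals that include 0.

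For FHL2, MRTFB and RHOB, the genes called with either hairpin, the named genes of most similar profile over the 9 arrays were found. The measure was the root mean square difference of log2 signals, each taken relative to its own Control mean. It was taken among 7568 genes above the negative controls throughout. By construction, genes close by this measure have changes of similar size, so closeness alone shows no link between genes. FHL2 was closest to ERCC3, MOCS2 and USP3, at 0.05, 0.055 and 0.061, where a flat profile would lie 0.48 away. MRTFB was closest to CLSPN, AGO1 and TNPO3, at 0.097, 0.098 and 0.0998 (flat, 0.38). RHOB was closest to WDTC1, IGF2BP1 and CITED4, at 0.11, 0.12 and 0.12 (flat, 0.42).

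Target genes of the factors were measured beside them. Of 29 SRF target genes measured, encoding mostly actin cytoskeleton proteins, 14 rose and 2 fell with ShLSD1 #1 and 12 rose and 1 fell with ShLSD1 #2. Of all clusters 7.85% were called higher and 7.94% lower with ShLSD1 #1, and 6.56% and 6.63% with ShLSD1 #2. Among clusters above the negative controls on all arrays, 13.7% and 11.8% were called higher. Below the negative controls on all arrays were 4 of the 29, among them MYH11, which is counted as a rise with ShLSD1 #2. Their median log2 change was 0.41 and 0.22, beside 0.03 and 0.02 over all clusters. TAGLN and ACTA2, transgelin and smooth muscle actin, were below the negative controls in Control cells and were at least 18.2-fold and 16.4-fold higher with ShLSD1 #1, and at least 13.6-fold and 10.9-fold with ShLSD1 #2. In these lower bounds the Control level is replaced by the average of the negative control percentiles of the Control arrays. CNN1, calponin, rose by 3.61 and 3.32 and exceeded the negative controls on 1 Control array. CCN2, a matricellular growth factor also driven by YAP, rose by 1.299 and 1.11, and TPM1, a tropomyosin, by 0.94 and 1.01. FILIP1L, an inhibitor of cell migration, fell by 0.66 with ShLSD1 #1 and by 0.98 with ShLSD1 #2. The other target called lower with ShLSD1 #1 was CCN1, named after its values were seen, at -0.51 (adjusted p = 0.027 by limma). With ShLSD1 #2 CCN1 had -0.41 and did not pass (0.0757). With the spike-in block 4 targets were called with ShLSD1 #1, where the calls of CCN2 (adjusted p = 0.0751), TPM1 (0.195) and FILIP1L (0.326) ended, and 10 with ShLSD1 #2. The list was chosen with these results known, so its direction is no independent evidence.

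**Figure D4:**
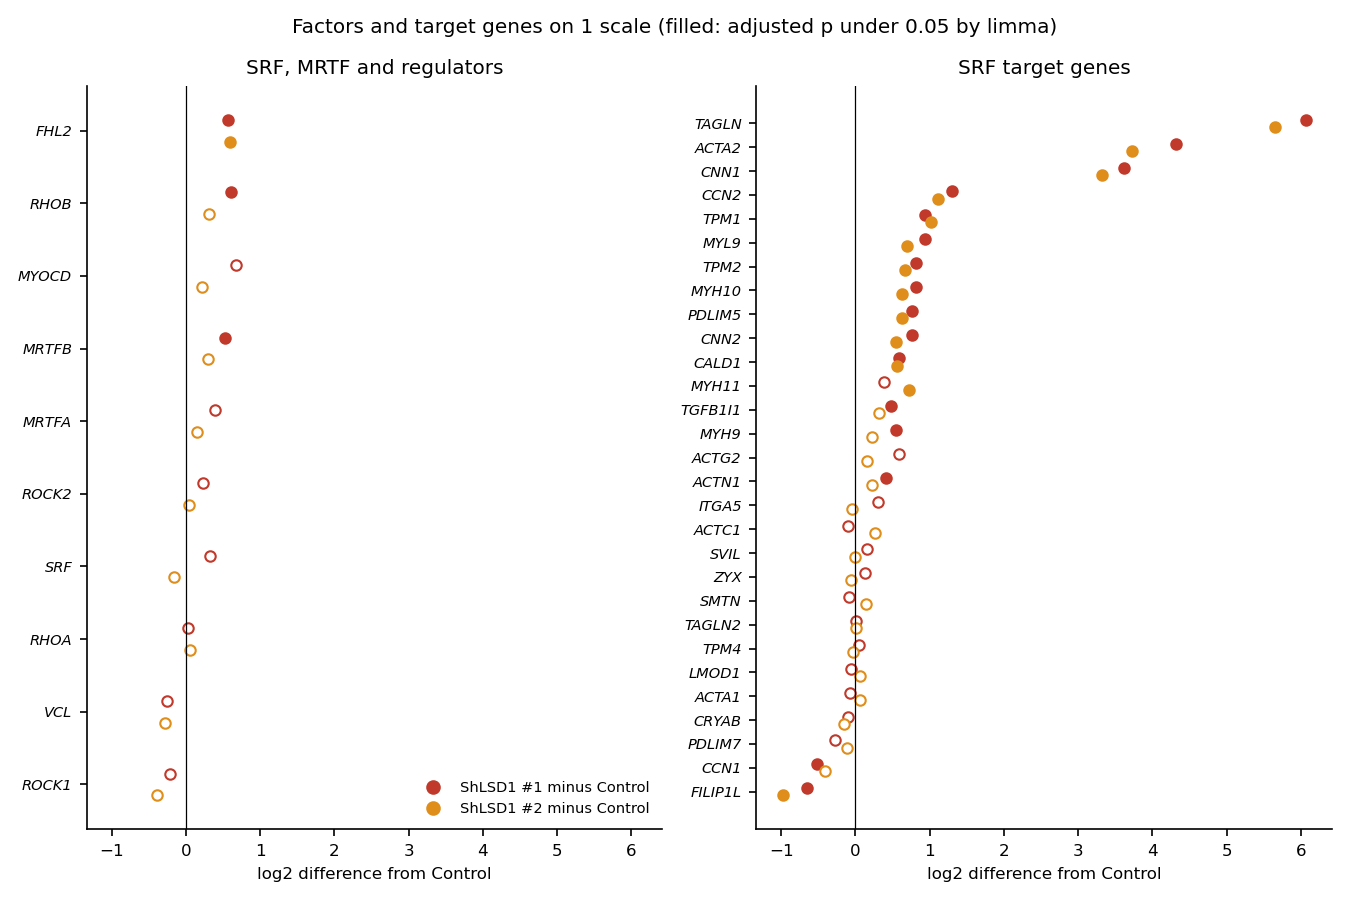
Log2 differences from Control (x axis, 1 scale for both panels) of the 10 factors and regulators at left and of 29 SRF target genes at right, for ShLSD1 #1 and ShLSD1 #2; filled points have an adjusted p under 0.05 by limma. At left, the genes above the negative controls reach 0.61 at most. TAGLN, the largest at right, has a fitted change of 6.07 with ShLSD1 #1 from a Control signal below the negative controls. The median of the 29 targets is 0.41 with ShLSD1 #1 and 0.22 with ShLSD1 #2.

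A number of SRF targets stood beside the factors, short of the test with both hairpins. TAGLN2, which encodes the broadly expressed transgelin, had differences of 0.01 and 0.01, TPM4, another tropomyosin, of 0.05 and -0.03, and ZYX, the focal adhesion protein zyxin, of 0.12 and -0.06, all chosen after their values were seen. Of 10 measured targets with a CArG box in a promoter window, 4 were called with ShLSD1 #1 and 2 with ShLSD1 #2, and of 14 with a window but no box, 9 and 8. Of all clusters 15.8% and 13.2% were called. The windows cover only the bases next to the start, and only the exact pattern was searched. Targets without a window, TAGLN and MYL9 among them, are in neither count. Whether a box goes with a change was not tested. Across the 12 measured immediate early genes, which SRF drives with ternary complex factors in place of MRTF, 6 were below the negative controls on all arrays. With either hairpin 0 rose, and 3 fell with ShLSD1 #1 and 2 with ShLSD1 #2. Of all clusters 7.94% and 6.63% were called lower with ShLSD1 #1 and ShLSD1 #2, and 15.8% and 13.2% in either direction. Of the clusters above the negative controls on all arrays, 28.6% and 24% were called in either direction. EGR1, a zinc finger factor named after its values were seen, rose by 0.42 with the mean of both hairpins (adjusted p = 0.0387 by limma), as the 1 gene of the list higher there, and 1 of its 3 Control arrays exceeded the negative controls. JUNB, an AP-1 subunit, fell by 1.76 with ShLSD1 #1 and by 1.28 with ShLSD1 #2, and MCL1, an inhibitor of apoptosis, by 0.94 and 0.94. IER2 fell by 0.65 with ShLSD1 #1 and had -0.39 with ShLSD1 #2 (adjusted p = 0.14). Its ShLSD1 #1 call ended without replicate 1, 2, 3 or 6 (adjusted p between 0.0527 and 0.0596). With the spike-in block the ShLSD1 #1 calls of IER2, JUNB and MCL1 ended (0.349, 0.137 and 0.18), and 1 of the 3 ShLSD1 #1 arrays of JUNB was below the negative controls.

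Other partners of SRF and the actin pool were read against the same background, 15.8% of clusters called with ShLSD1 #1 and 13.2% with ShLSD1 #2. Of 6 further SRF partners, ELK1, ELK3, ELK4, GATA4, GATA6 and NKX2-5, 0 passed with either hairpin. The ternary complex factors ELK1, ELK3 and ELK4 had differences of 0.17, -0.38 and 0.08 with ShLSD1 #1 and of 0.32, -0.37 and -0.08 with ShLSD1 #2. In the list of actin and its monomer-binding and severing proteins, which set the monomeric actin that MRTF binds, 1 of 14 rose and 2 fell with ShLSD1 #1, and 1 rose and 1 fell with ShLSD1 #2. GSN, the filament-severing protein gelsolin, fell by 0.58 with ShLSD1 #1 and by 0.63 with ShLSD1 #2, where the ShLSD1 #1 call ended with the spike-in block (adjusted p = 0.294). ACTB and ACTG1, the cytoplasmic actins, had differences of -0.09 and 0.03 with ShLSD1 #1 and of -0.02 and 0.06 with ShLSD1 #2, their pseudogenes may share probe signal, and the ACTG1 signal, like that of RHOA, exceeds 16. Of 10 other regulators of MRTF, 1 rose with ShLSD1 #1 and 0 passed with ShLSD1 #2. That one was MICAL2, a nuclear enzyme that oxidises actin and so frees MRTF, at 0.52 (adjusted p = 0.0207), a call that ended without replicate 2, 3 or 4 (adjusted p = 0.0628, 0.0706 and 0.0712) and with the spike-in block (0.376).

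Relatives of FHL2 and partners of vinculin went both ways, and their counts are to be read beside the 15.8% of all clusters called with ShLSD1 #1 and the 13.2% called with ShLSD1 #2. Of 8 LIM domain genes 1 rose with ShLSD1 #1, and 1 rose and 1 fell with ShLSD1 #2. LIMA1, which bundles actin filaments, rose by 0.44 and 0.46, calls that ended without replicate 1, 2, 5 or 6 for ShLSD1 #1 (adjusted p between 0.0582 and 0.0852) and without replicate 1, 2, 7 or 9 for ShLSD1 #2 (between 0.0566 and 0.0816). LPP, a zyxin relative, fell by 0.47 with ShLSD1 #2, a call that ended without replicate 1, 2, 3, 8 or 9 (between 0.0545 and 0.1). Of 19 focal adhesion partners 3 rose and 2 fell with ShLSD1 #1, and 1 rose and 2 fell with ShLSD1 #2. ENAH, which extends actin filaments, rose by 0.80 and 0.52, while FERMT2, the integrin activator kindlin-2, fell by 0.66 with ShLSD1 #1 and by 0.62 with ShLSD1 #2, and LIMS1, a partner of integrin-linked kinase, by 0.55 and 0.44. The ShLSD1 #2 calls ended without replicate 1, 2, 7, 8 or 9 for ENAH (between 0.0555 and 0.102) and without replicate 1, 2, 3, 7 or 9 for LIMS1 (between 0.0634 and 0.107). With the spike-in block the ShLSD1 #1 calls of LIMA1, ENAH, FERMT2 and LIMS1 ended (adjusted p = 0.219, 0.117, 0.243 and 0.13). The ShLSD1 #2 calls of ENAH and LPP ended there too (0.0555 and 0.0968), which repeats the fits without replicate 8. In a fit of the compared groups alone the ShLSD1 #2 calls of ENAH, LIMS1 and LPP ended (0.0559, 0.0576 and 0.0606). On the arrays of higher spike-in signal alone, which leave out replicate 8, the ShLSD1 #2 calls of FERMT2, LIMA1 and LIMS1 ended (0.0739, 0.078 and 0.0757). Those of ENAH and LPP ended there as well (0.106 and 0.16).

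**Figure D5:**
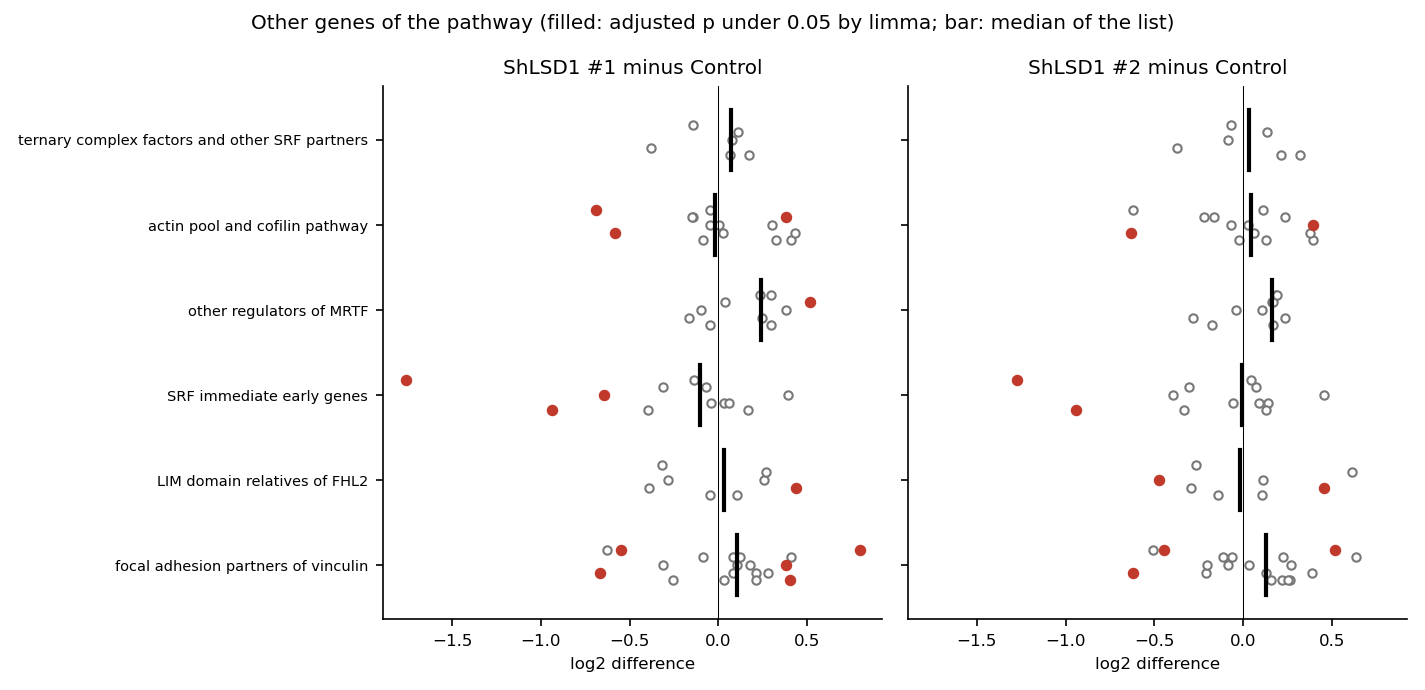
Log2 differences from Control (x axis) of the genes of 6 pathway lists for ShLSD1 #1 and ShLSD1 #2; filled points have an adjusted p under 0.05 by limma and bars mark list medians. Medians lie between -0.105 and 0.24 with ShLSD1 #1 and between -0.02 and 0.17 with ShLSD1 #2.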

How the data were processed

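Per the labels, RNA of ACC-MESO-1 cells was column-purified and 100 ng was labelled for Clariom S arrays. The deposited log2 values were made by the authors with RMA in Affymetrix Expression Console 1.4, per the submitters' processing notes. Base 2, the RMA default, was assumed, and the labels name no library files or options. Of 24351 probe sets, 2903 controls were set aside and 21448 clusters were tested without a filter. Symbols came from the array's annotation (17709 clusters), and each of the 10 genes had 1 cluster.

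Groups came from sample titles. limma 3.58.1 (R 4.3.3) was fitted to the 9 arrays with lmFit and eBayes, without trend, and two-sided p-values were adjusted by Benjamini-Hochberg. Background was the 95th percentile of 612 negative control probe sets per array. The fit was tested on simulated data. In each of 10 lists, up to 4 genes past the test with both hairpins and of largest mean change were named (6 for SRF targets), and all where 3 or fewer passed. The genes and lists were chosen with earlier results of these data known. Protein comparisons that had been planned were not run. Results of 3 of the lists are not reported here. The number of arrays limits the precision. Alternatives were other normalizations, a filter, priors, array weights, fits without the other hairpin and fits without each array. Chosen after seeing the data were a block for spike-in class and a fit to high-class arrays alone. Plots used matplotlib 3.10.9.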

Additional observations from a re-analysis of the deposited data

Results flagged for a closer look

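For SRF, all 3 ShLSD1 #1 arrays lay above and all 3 ShLSD1 #2 arrays below the Control mean of 8.80, though both groups overlapped the Control range of 8.58 to 8.996. The difference of ShLSD1 #1 minus ShLSD1 #2 was 0.49 on the log2 scale, and by limma it did not pass the adjusted threshold (adjusted p = 0.582, unadjusted p = 0.0163). Neither difference from Control passed either. The difference between the hairpins with the spike-in block was 0.78 (adjusted p = 0.617), and without ShLSD1 #2 replicate 8 it was 0.35 (0.652).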

How the results depend on the processing

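The FHL2 changes kept their direction in all alternatives run and, except for ShLSD1 #1 and the mean of both hairpins with the spike-in block (adjusted p = 0.22 and 0.055), their side of the threshold. Without 1 array each, the genes called of 10 numbered 1 to 3 with ShLSD1 #1 and 1 to 2 with the mean of both hairpins, where the smaller counts followed the omission of Control replicate 3 for ShLSD1 #1. With a trended robust prior the counts were 5 with ShLSD1 #1, 2 with ShLSD1 #2 and 4 with the mean, that last count also without the third of clusters of lowest mean. The same prior called 42 clusters and 1 SRF target between the hairpins, against 0 and 0. With the spike-in block 0 of the 10 genes were called with ShLSD1 #1 and 0 with the mean, 4 and 10 SRF targets, and 399 and 1225 clusters, and on high spike-in arrays alone 1450 clusters were called with ShLSD1 #2. The cause was not tested.

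Reversals concerned differences short of the threshold. With the block, RHOA changed to -0.14 with ShLSD1 #1, -0.0067 with ShLSD1 #2 and -0.072 with the mean, ROCK1 to 0.17 with ShLSD1 #1 and ROCK2 to -0.0070 with ShLSD1 #2. On those high spike-in arrays alone, which again leave out replicate 8, RHOA and ROCK2 had -0.0068 and -0.0070 with ShLSD1 #2. Under cyclic loess, ShLSD1 #1 minus ShLSD1 #2 was 0.0016 for FHL2 and 0.0048 for RHOA. Over omissions of 1 array, ShLSD1 #1 minus ShLSD1 #2 ran from -0.060 to 0.0090 for FHL2, from -0.079 to 0.041 for RHOA and from -0.033 to 0.083 for VCL. ShLSD1 #2 minus Control ran from -0.033 to 0.41 for MYOCD, from -0.0068 to 0.11 for RHOA and from -0.043 to 0.093 for ROCK2, ShLSD1 #1 minus Control from 0 to 0.060 for RHOA, and the mean of both hairpins minus Control from -0.026 to 0.18 for SRF. No paired analysis was possible because the groups share no replicate numbers, and no other cluster could be tried since each gene has 1.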
